A study of Mus musculus with 34 samples.

Results

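The 4 genes described here encode chemoattractant receptors of myeloid cells: Fpr1 and Fpr2, receptors for formyl peptides, Ltb4r1, the high-affinity receptor for leukotriene B4, and Ptafr, the receptor for platelet-activating factor (PAF). They were matched by symbol to the gene IDs of the count tables, and all 4 were found among 54532 gene IDs. The genes were selected on earlier results of these same counts, in which their levels differed between mice with and without LPS. Their differences between groups are therefore given as a description, with no p-value. RNA of whole blood from wild-type (WT) mice was sequenced, and each library is 1 mouse. Mice had received ALY688 and LPS (7 libraries), LPS (4), ALY688 (10) or PBS (9), and 30 of 34 labelled samples had counts analysed here. ALY688 is an agonist of the adiponectin receptors, per the series title, and LPS is lipopolysaccharide, an endotoxin of Gram-negative bacteria. The labels state no dose, sampling time, age, sex or strain. The series describes the ALY688 experiment and a sublethal LPS model separately, so an effect of LPS cannot be told apart from a difference between experiments.

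All 4 receptors span the membrane with the heptahelical fold of G protein-coupled receptors and signal through G proteins, Gi among them, in phagocytes. Their ligands are made at or near sites of infection. Formyl peptides come from bacteria and from damaged mitochondria, leukotriene B4 is made from arachidonic acid by 5-lipoxygenase and leukotriene A4 hydrolase, and PAF is an acetylated ether phospholipid made by activated leukocytes. In neutrophils the receptors direct migration and start the oxidative burst and degranulation, and monocytes carry them as well.

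Fpr1 (ENSMUSG00000045551) lies on the minus strand at chr17:17876471-17883940, and Fpr2 (ENSMUSG00000052270) on the plus strand at chr17:17887824-17893952 (GENCODE M21 on GRCm38). These neighbours are transcribed away from each other, with starts 3884 bases apart. Ltb4r1 (ENSMUSG00000046908) lies at chr14:55765962-55768494 and Ptafr (ENSMUSG00000056529) at chr4:132564067-132582683, both on the plus strand. The 250 bases before each RefSeq start are shown because the 4 genes were higher together in every library with LPS, and the formyl peptide receptor pair shares one locus. The sequences are from RefSeq on GRCm38.p6, run 5′ to 3′ on the gene's strand, and cover chr17:17883940-17884189 for Fpr1, chr17:17887574-17887823 for Fpr2, chr14:55765712-55765961 for Ltb4r1 and chr4:132563817-132564066 for Ptafr. The RefSeq start of Fpr1 is the base next to the GENCODE start, inside the gene. Capitals mark matches to the motifs searched.
Fpr1: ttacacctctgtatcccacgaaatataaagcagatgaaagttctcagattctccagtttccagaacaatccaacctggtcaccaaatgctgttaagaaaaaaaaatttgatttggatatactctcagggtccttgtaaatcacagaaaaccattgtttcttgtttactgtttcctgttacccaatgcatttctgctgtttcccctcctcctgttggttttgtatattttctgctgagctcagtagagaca
Fpr2: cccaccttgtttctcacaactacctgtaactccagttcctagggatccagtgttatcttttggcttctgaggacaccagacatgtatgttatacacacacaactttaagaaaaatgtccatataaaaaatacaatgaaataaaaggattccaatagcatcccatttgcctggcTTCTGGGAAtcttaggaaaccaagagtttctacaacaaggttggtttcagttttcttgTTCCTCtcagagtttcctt
Ltb4r1: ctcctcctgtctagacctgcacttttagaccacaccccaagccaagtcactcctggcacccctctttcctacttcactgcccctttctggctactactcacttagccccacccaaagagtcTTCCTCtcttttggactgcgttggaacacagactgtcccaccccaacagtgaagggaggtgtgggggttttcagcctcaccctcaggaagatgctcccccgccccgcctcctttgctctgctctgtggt
Ptafr: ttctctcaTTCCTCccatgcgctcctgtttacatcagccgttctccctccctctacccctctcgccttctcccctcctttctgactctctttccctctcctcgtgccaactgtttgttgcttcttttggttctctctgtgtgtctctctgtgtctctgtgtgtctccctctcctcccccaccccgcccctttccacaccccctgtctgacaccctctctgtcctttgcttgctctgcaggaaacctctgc
The GC content of these windows was 38.4% for Fpr1 and 38.8% for Fpr2, against 56.8% for Ltb4r1 and 56.0% for Ptafr. The median over the 32851 promoter windows of that length in the table was 52.4%. The letters GAGGAA, an ETS core read by PU.1, were searched on both strands and occurred in 23.3% of all windows. They were found on the reverse strand, as TTCCTC, at bases -19 to -14 of Fpr2, -129 to -124 of Ltb4r1 and -242 to -237 of Ptafr, counted from the base before the start as -1. The STAT letters TTCNNNGAA occurred in 7.02% of windows and, among the 4 receptors, in that of Fpr2 at bases -77 to -69. The letters TTGCNNAA (C/EBP, 9.56% of windows), TGANTCA (AP-1, 6.75%), GAAA followed by NN and GAAA (interferon-stimulated response element core, 2.98%) and the kappaB consensus (7.25%) had no match in the 4 windows.

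Library totals ran from 10087871 to 15349120 counts in ALY688+LPS mice, from 10914821 to 17338214 in LPS mice, from 10893714 to 12514008 in ALY688 mice and from 9554964 to 11289689 in PBS mice. Globin genes, whose RNA marks red cells, took 40.5% ± 11.0, 30.4% ± 10.4, 49.2% ± 6.51 and 56.3% ± 6.22 (SD) of the counts in these groups, in the same order. The series text speaks of plasma for the ALY688 experiment, but every sample is labelled blood. Levels below are in CPM, a library's counts made relative to its total, with TMM scaling over the 30 libraries together. A total of 3 counts, taken as the floor of detection, stood between 0.0725 CPM in LPS mouse 6 and 0.860 CPM in PBS mouse 5, and covers counting error only. The lowest count of any of the 4 receptors in any library was 13, for Fpr2 in PBS mouse 5. Of the 50-base stretches of Fpr2 exons, 31.5% also occur in another annotated gene, mostly in a pair of Gm5966 pseudogenes that held 0 and 3 counts over all libraries. The share was 0.078% for Fpr1, 0 for Ltb4r1 and 1.64% for Ptafr. How shared reads were counted is not stated, and this leaves the level of Fpr2 less certain than those of the other receptors.

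Both formyl peptide receptors were low in blood without LPS and were among the genes with the largest upward differences with it. Fpr1, which binds formyl peptides with high affinity, had 72.4, 293 and 327 CPM (lowest, median and highest) in ALY688+LPS mice, and 134, 101, 299.8 and 276 CPM in LPS mice 2, 6, 7 and 8. It had 3.38, 4.31 and 5.52 CPM (lowest, median and highest) in ALY688 mice and 2.60, 4.06 and 8.62 CPM in PBS mice. Every mouse with LPS stood above every mouse without it: the lowest value with LPS, in ALY688+LPS mouse 4, was 8.40 times the highest without, in PBS mouse 7. The means were 242 ± 93.7 CPM in ALY688+LPS mice, 203 ± 99.8 in LPS mice, 4.39 ± 0.785 in ALY688 mice and 4.73 ± 1.87 in PBS mice (SD, n = 7, 4, 10 and 9). The fitted difference of LPS over PBS was 5.39 ± 0.33 (log2, SE), a fold of 41.9 (95% interval 25.7 to 68.3). ALY688+LPS over ALY688 was 5.78 ± 0.25, a fold of 55.0 (38.1 to 79.3).

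Fpr2, which in mice also takes up protein and lipid ligands such as serum amyloid A and annexin A1, followed Fpr1 closely. Its lowest, median and highest values in ALY688+LPS mice were 64.2, 263 and 352 CPM, and LPS mice 2, 6, 7 and 8 had 134, 97.2, 312 and 271 CPM. ALY688 mice had 2.88, 4.83 and 7.89 CPM and PBS mice 3.71, 6.15 and 12.2 CPM. Mice with and without LPS did not overlap: the value of ALY688+LPS mouse 4, the lowest with LPS, was 5.28 times that of PBS mouse 9, the highest without. LPS over PBS was 4.88 ± 0.36 (log2, SE), a fold of 29.5 (95% interval 17.5 to 49.9), and ALY688+LPS over ALY688 was 5.66 ± 0.29, a fold of 50.7 (33.5 to 76.8). Counted from the highest signed log2 fold change down, Fpr1 and Fpr2 ranked 37 and 48 of 12353 genes tested in LPS over PBS. In ALY688+LPS over ALY688 they ranked 18 and 19 of 12266.

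Ltb4r1 had a smaller difference and the tightest values among mice with LPS. It had 39.0, 50.9 and 59.0 CPM (lowest, median and highest) in ALY688+LPS mice, and 43.7, 36.9, 67.9 and 51.2 CPM in LPS mice 2, 6, 7 and 8. ALY688 mice had 4.27, 6.46 and 8.57 CPM, and PBS mice 4.22, 7.38 and 14.4 CPM. The highest value of an ALY688+LPS mouse was 1.51 times the lowest, against 4.51 times for Fpr1 in the same mice. LPS over PBS was 2.58 ± 0.29 (log2, SE), a fold of 5.98 (95% interval 3.92 to 9.14), and ALY688+LPS over ALY688 was 2.94 ± 0.14, a fold of 7.68 (6.29 to 9.39). The lowest mouse with LPS stood at 2.56 times the highest without.

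Ptafr had the smallest difference of the 4. Its values were 44.5, 77.9 and 85.8 CPM (lowest, median and highest) in ALY688+LPS mice, and 46.7, 43.7, 87.1 and 75.7 CPM in LPS mice 2, 6, 7 and 8. ALY688 mice had 10.2, 14.4 and 17.7 CPM, and PBS mice 9.81, 14.3 and 33.1 CPM. The groups with and without LPS again did not overlap, by a factor of 1.32 between LPS mouse 6 and PBS mouse 9. LPS over PBS was 1.82 ± 0.31 (log2, SE), a fold of 3.53 (95% interval 2.25 to 5.53), and ALY688+LPS over ALY688 was 2.27 ± 0.14, a fold of 4.83 (3.96 to 5.89). All 4 receptors passed in edgeR's quasi-likelihood test (adjusted p below 0.05) as higher in LPS than in PBS, where 20.9% of genes tested did. All 4 passed as higher in ALY688+LPS than in ALY688, where 26.4% did and 26.6% were lower. Every LPS library lay above every PBS library for 14.1% of genes, and every ALY688+LPS library above every ALY688 library for 12.7%. These counts describe genes chosen for this response and support nothing further.

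**Figure D1:**
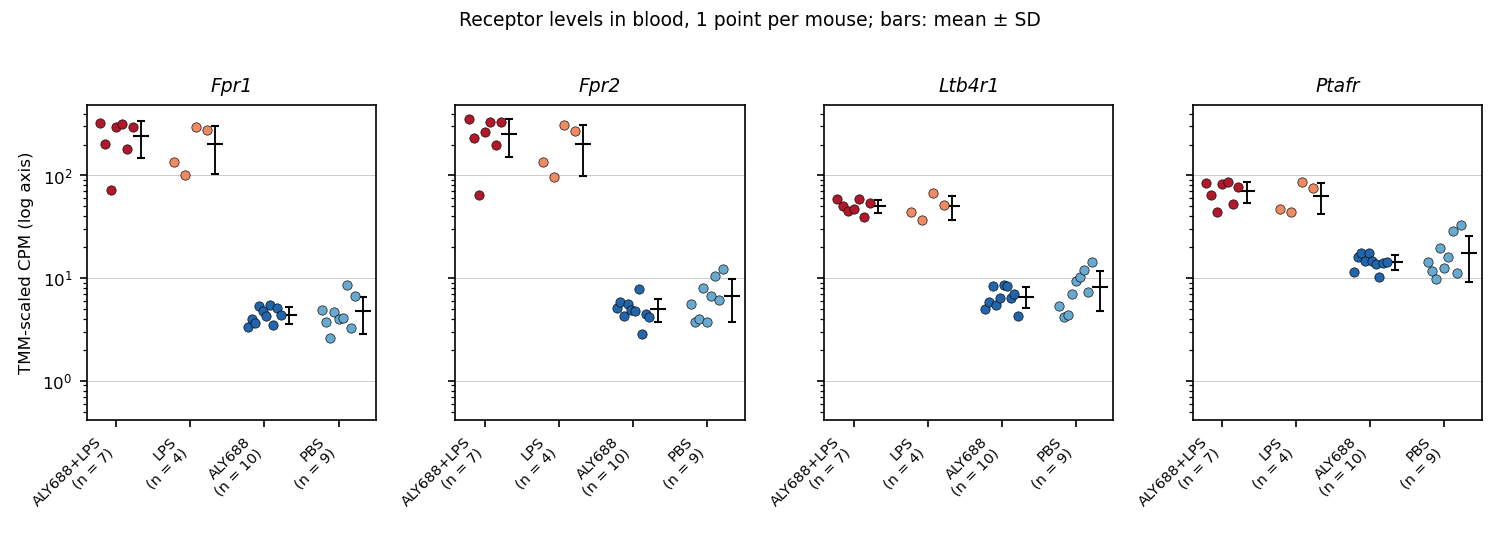
TMM-scaled CPM (log axis) of each receptor, 1 point per mouse, by group, with mean ± SD beside the points. All 11 mice with LPS lie above all 19 without for each gene, with gaps of 8.40-fold for Fpr1, 5.28-fold for Fpr2, 2.56-fold for Ltb4r1 and 1.32-fold for Ptafr.

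Divided by exon length, the levels lay close together without LPS and far apart with it. In CPM per kilobase of exon, Fpr2 and Fpr1 led in ALY688+LPS mice with means of 195 and 183, followed by Ltb4r1 at 36.2 and Ptafr at 19.4. LPS mice had the same order of means, 157 for Fpr2, 153 for Fpr1, 35.8 for Ltb4r1 and 17.4 for Ptafr. In ALY688 mice the means lay close together, at 4.73 for Ltb4r1, 3.98 for Ptafr, 3.86 for Fpr2 and 3.31 for Fpr1. PBS mice had 5.92 for Ltb4r1, 5.20 for Fpr2, 4.80 for Ptafr and 3.57 for Fpr1, with SDs of 1.41 to 2.51, so neighbours in that order did not differ beyond their spread. Divided by the longest transcript instead, Fpr2 averaged 224 in ALY688+LPS mice, 179.6 in LPS mice, 4.41 in ALY688 mice and 5.95 in PBS mice, while the other 3 receptors kept their values. Fpr2 then stood above Ltb4r1 in PBS mice and above Ptafr in ALY688 mice, so the order without LPS depends on the length used. The ratio of Fpr1 to Ptafr within a library, in CPM, was 3.31 ± 0.783 in ALY688+LPS mice and 3.07 ± 0.600 in LPS mice, against 0.308 ± 0.0611 in ALY688 mice and 0.281 ± 0.0447 in PBS mice (SD). The ratio of Fpr1 to Fpr2 moved little, with 0.978 ± 0.110 in ALY688+LPS mice, 1.00 ± 0.0336 in LPS mice, 0.909 ± 0.190 in ALY688 mice and 0.743 ± 0.205 in PBS mice.

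ALY688 without LPS gave receptor levels whose ranges overlapped those of PBS for all 4 genes. The differences of ALY688 over PBS (log2, SE) were -0.14 ± 0.20 for Fpr1 (95% interval -0.55 to 0.28) and -0.47 ± 0.23 for Fpr2 (-0.95 to 0.00). They were -0.34 ± 0.23 for Ltb4r1 (-0.82 to 0.14) and -0.30 ± 0.21 for Ptafr (-0.73 to 0.14). None of the 4 passed in edgeR, where 0.0% of 11708 genes tested did, 1250 had an unadjusted p below 0.05, and DESeq2 called 0. PBS mice spread more widely than ALY688 mice: PBS mice 7 and 9 were the highest of that group for each receptor, and the highest PBS value of Ptafr was 3.37 times the lowest, against 1.74 times among ALY688 mice. The 4 estimates turned positive without TMM scaling, where the median of all genes shifted to 0.50.

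ALY688+LPS mice and LPS mice also overlapped for every receptor. ALY688+LPS over LPS was 0.27 ± 0.40 (log2, SE) for Fpr1 (95% interval -0.61 to 1.14), 0.32 ± 0.43 for Fpr2 (-0.61 to 1.25), 0.03 ± 0.17 for Ltb4r1 (-0.35 to 0.41) and 0.17 ± 0.24 for Ptafr (-0.35 to 0.68). None passed in edgeR, where 0.0% of 12741 genes did, 464 had an unadjusted p below 0.05, and DESeq2 called 0. The intervals for the formyl peptide receptors reach from a fold of 0.655 to 2.20 for Fpr1 and 2.38 for Fpr2, and differences inside them could not be detected with 7 and 4 mice. LPS mice 2 and 6 stood low and mice 7 and 8 high for all 4 receptors. The interaction, the difference between the responses to LPS with and without ALY688, was 0.39 ± 0.41 for Fpr1, 0.79 ± 0.45 for Fpr2, 0.36 ± 0.32 for Ltb4r1 and 0.46 ± 0.33 for Ptafr (log2, SE). None passed in edgeR, where 0.0% of 13476 genes did, 1216 had an unadjusted p below 0.05, and DESeq2 called 0. Without TMM scaling the interaction of Fpr1, Ltb4r1 and Ptafr, and the difference of ALY688+LPS over LPS for Ltb4r1 and Ptafr, turned negative. The comparisons share groups, so their estimates for one receptor are not independent.

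**Figure D2:**
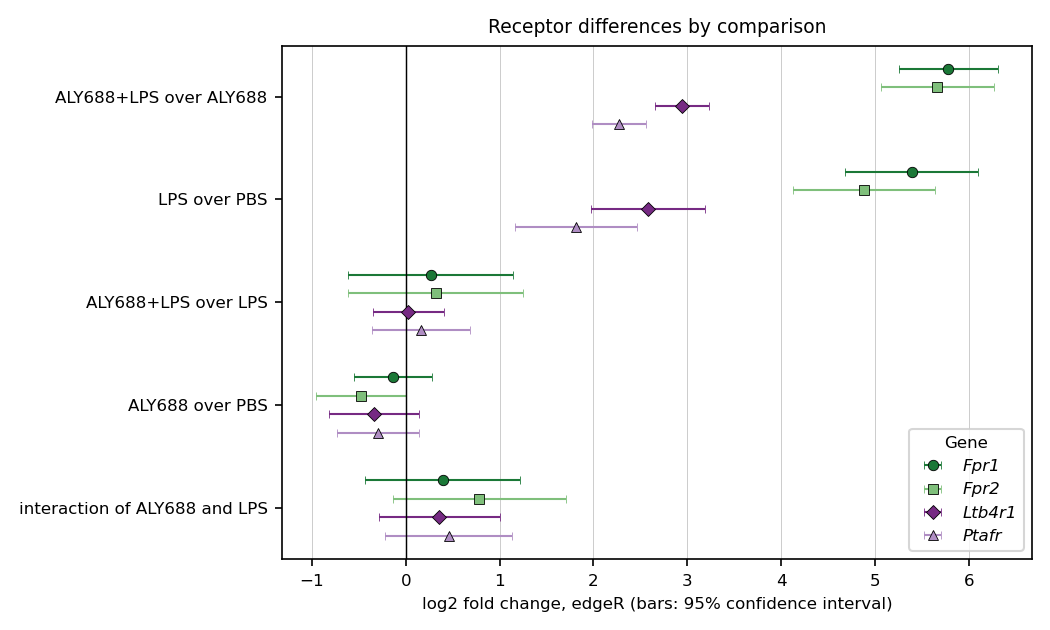
Log2 fold change of each receptor in the 5 comparisons, with 95% confidence intervals from edgeR. The differences with LPS over those without lie between 1.82 and 5.78, and every interval for ALY688 over its control or for the interaction reaches to 0 or across it.

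Blood is a mixture, and fewer cells of a type and less RNA per cell cannot be told apart in these libraries. The summed level of the neutrophil markers moved with the receptors. Of 16 neutrophil markers, 14 passed as higher and 0 as lower in LPS than in PBS, and 15 as higher and 0 as lower in ALY688+LPS than in ALY688. Of all genes tested, 20.9% were higher and 17.9% lower in the first comparison, and 26.4% and 26.6% in the second. The summed level of the list ran from 6649 to 15576 CPM in ALY688+LPS mice, 5209 to 17190 in LPS mice, 856 to 1774 in ALY688 mice and 927 to 2599 in PBS mice. In LPS over PBS, Lcn2, an iron-scavenging granule protein that LPS also induces, was higher by 6.14 (log2), Ly6g by 4.61 and Cd177 by 3.91. Monocyte markers also moved: 11 of 16 were higher and 1 lower in LPS than in PBS, Cd14, the LPS co-receptor, by 4.79, Treml4 by 2.15 and Nr4a1 by 2.17. The monocyte sum ran from 1621 to 2322 CPM in ALY688+LPS mice, 1521 to 2424 in LPS mice, 699 to 1301 in ALY688 mice and 644 to 1953 in PBS mice. No marker of either list was at 0 in any group. The part of cell numbers in the receptor differences was not tested.

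Among the other lists in LPS over PBS, all 10 B cell markers and all 10 T cell markers were lower. Of 8 NK cell markers 5 were higher, of 10 platelet markers 5 were lower, and of 9 red cell markers 1 was lower. Of all genes tested in LPS over PBS, 20.9% were higher and 17.9% lower. The red cell count did not exceed that share and is not read as a result. Of 10 eosinophil, basophil and mast cell markers 5 were tested and 2 were lower. In ALY688+LPS over ALY688 all 10 B cell and all 10 T cell markers were again lower, and 0 of 10 platelet markers passed. Of 9 red cell and 8 NK cell markers, 2 each were higher there, and 1 NK cell marker was lower. These red cell and NK cell counts did not exceed the shares of all genes, 26.4% higher and 26.6% lower, and are not read as results. Of 6 eosinophil, basophil and mast cell markers tested there, 1 was higher and 4 were lower. Without TMM scaling 6 B cell and 3 T cell markers were lower in LPS than in PBS. With the globin share as a covariate 5 monocyte markers and 1 NK cell marker were higher and 0 platelet markers lower. The platelet count was 0 without LPS mouse 2 or 6 and 3 without LPS mouse 8. The red cell count ran from 0 to 5 over the alternatives tried.

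Between mice with and without LPS, the formyl peptide receptors differed by more than the mean of the neutrophil markers, Ltb4r1 by about as much and Ptafr by less. Against the monocyte markers all 4 differed by more. The mean log2 CPM of the 16 markers was 8.32 ± 0.43 in ALY688+LPS mice, 8.06 ± 0.74 in LPS mice, 4.83 ± 0.39 in ALY688 mice and 5.02 ± 0.56 in PBS mice (SD). Relative to that mean, Fpr1 stood at -0.54 ± 0.39 in ALY688+LPS mice and -0.54 ± 0.14 in LPS mice, against -2.68 ± 0.28 in ALY688 mice and -2.82 ± 0.32 in PBS mice. Fpr2 stood at -0.50, -0.55, -2.51 and -2.35 in the same groups. The ranges of both genes did not overlap between mice with and without LPS on this relative scale. Ltb4r1 stood at -2.67, -2.45, -2.12 and -2.06 in these groups, with overlapping ranges. Ptafr stood at -2.21 and -2.13 in ALY688+LPS and LPS mice, against -0.98 in ALY688 mice and -1.002 in PBS mice, with no overlap and in the direction opposite to its own level. The marker list includes genes that LPS induces, so this mean is not a count of neutrophils. Relative to the mean of the 16 monocyte markers, Fpr1 stood at 1.40 in ALY688+LPS mice and 1.16 in LPS mice, against -2.92 in ALY688 mice and -2.94 in PBS mice, and Fpr2 at 1.44, 1.15, -2.75 and -2.48 in the same groups. Ltb4r1 stood at -0.73, -0.75, -2.36 and -2.19 in these groups, and Ptafr at -0.28, -0.43, -1.23 and -1.13. On this scale the ranges with and without LPS did not overlap for Fpr1 and Fpr2 and overlapped for Ltb4r1 and Ptafr. The share of all genes that separate on either relative scale was not computed. The receptors were chosen for this response, so ranges that do not overlap are a description only.

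**Figure D3:**
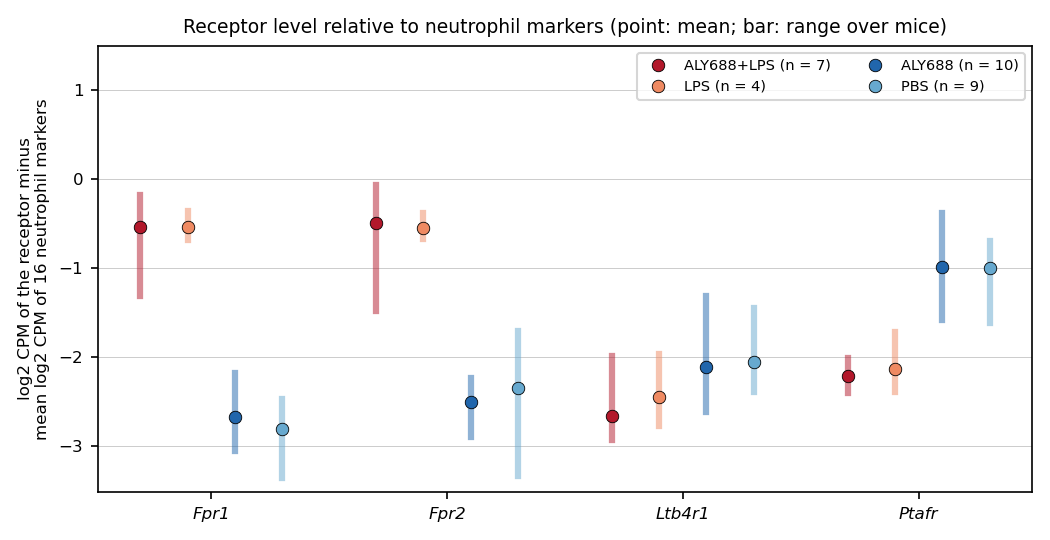
Log2 CPM of each receptor minus the mean log2 CPM of 16 neutrophil markers in the same library, with the mean (point) and range (bar) over the mice of each group. Fpr1 and Fpr2 lie higher with LPS, near -0.5 against below -2.3 without, Ltb4r1 ranges overlap, and Ptafr lies lower with LPS.

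The mice with low receptor levels under LPS also had low neutrophil markers. ALY688+LPS mouse 4, the lowest for Fpr1, Fpr2 and Ptafr, had a mean marker level of 7.49, the lowest of its group, and a neutrophil sum of 6649 CPM. Its monocyte sum of 1924 CPM was inside the range of the others. LPS mouse 6, the lowest of the LPS group for all 4 receptors, had the lowest neutrophil mean of that group, 7.18, and the highest monocyte mean, 6.82. Among PBS mice, mouse 9 and mouse 7 had the highest neutrophil means, 5.75 and 5.62. PBS mouse 7 also had the highest monocyte mean of its group, 5.81, while mouse 9 stood at 4.93, and their monocyte sums were 1614 and 1825 CPM.

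Within groups, 18 relations between receptors were computed on log2 CPM over 3 groups, and Fpr1 and Ptafr varied together from mouse to mouse in both ALY688+LPS and PBS mice. In ALY688+LPS mice, Fpr1 and Fpr2 had r = 0.986 and rho = 0.893 (n = 7, exact permutation p = 0.0016 and 0.012, two-sided, adjusted over the family 0.0071 and 0.044), and r was 0.839 without the 2 mice farthest from the median of Fpr1. Fpr1 and Ptafr had r = 0.950 and rho = 0.964 there (exact permutation p = 4.0e-04 and 0.0028, adjusted 0.0031 and 0.025), and r = 0.981 without the 2 farthest mice. In PBS mice, Fpr1 and Ptafr had r = 0.922 and rho = 0.933 (n = 9, exact permutation p = 5.2e-04 and 7.5e-04, adjusted 0.0031 and 0.013), with r = 0.821 without the 2 farthest. Fpr1 and Fpr2 in PBS mice had r = 0.794 and rho = 0.717 (exact permutation p = 0.0099 and 0.037, adjusted 0.030 and 0.060), and r fell to 0.460 without the 2 farthest mice, so the relation rests on them. Fpr2 and Ptafr had r = 0.909 and rho = 0.821 in ALY688+LPS mice (exact permutation, adjusted p = 0.0071 and 0.060) and r = 0.919 and rho = 0.817 in PBS mice (exact permutation, adjusted p = 0.0031 and 0.044), and r = 0.878 and 0.765 without the 2 mice farthest in each group. Most relations of Ltb4r1 did not pass. In ALY688+LPS mice its r was 0.581 with Fpr1, 0.589 with Fpr2 and 0.742 with Ptafr (exact permutation, adjusted p = 0.24, 0.24 and 0.099), and its rho was 0.857, 0.893 and 0.821 (adjusted p = 0.060, 0.044 and 0.060, exact permutation). In PBS mice its r was 0.700 with Fpr1, 0.749 with Fpr2 and 0.785 with Ptafr (exact permutation, adjusted p = 0.069, 0.053 and 0.034), and its rho was 0.633, 0.767 and 0.733 (adjusted p = 0.11, 0.060 and 0.060, exact permutation). In ALY688 mice no pair passed: Fpr1 and Fpr2 had r = 0.583 and rho = 0.418 (n = 10, permutation p = 0.070 and 0.23, adjusted 0.11 and 0.32), and the other pairs had r of 0.363 or less. The points of a relation come from one library each and share its depth, scaling and cell mixture. The LPS group, with 4 mice, was too small for a correlation.

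**Figure D4:**
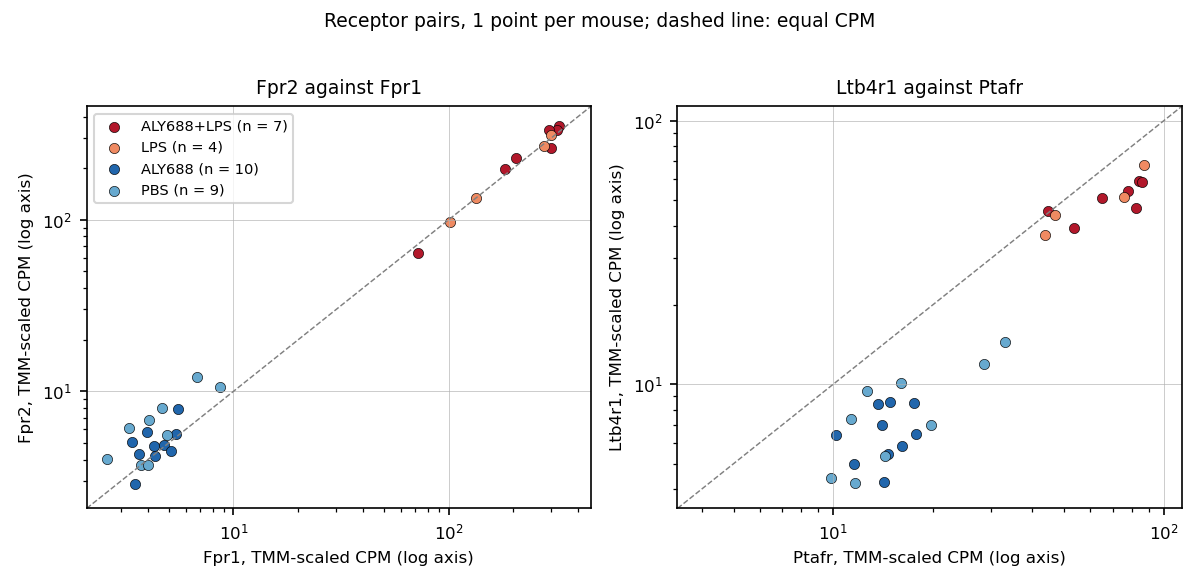
CPM of Fpr2 against Fpr1 and of Ltb4r1 against Ptafr, 1 point per mouse on log axes, with a dashed line of equal CPM. Fpr1 and Fpr2 lie along the line over both clusters of mice, those with and those without LPS, and Ltb4r1 lies below Ptafr in most mice.

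The genes whose log2 CPM over the 30 libraries was most like each receptor were ranked among 10588 genes. Pearson's r is given as a description, because the libraries fall into a cluster with and a cluster without LPS. For Fpr1 the nearest genes were Fpr2 (0.994), Mmp25, a membrane-bound matrix metalloproteinase, Slc11a1, a phagosomal metal transporter, Pglyrp1, a peptidoglycan recognition protein, and Prok2. The order depends on the measure: by rho, Mmp25 (0.946) and Ptafr (0.907) were closer to Fpr1 than Fpr2 was (0.886). For Fpr2 they were Fpr1, Pilra, Mmp25, Siglece, a sialic acid-binding inhibitory receptor, and Pglyrp1. Ltb4r1 had another set: Anxa2 (0.987), Itgam, the alpha chain of the integrin Mac-1, Rab31, Spi1, which encodes PU.1, and App. Ptafr was nearest to C5ar1 (0.988), the receptor for complement C5a, then Marcks, Pygl, Lpcat2, which makes PAF, and Pla2g7, which breaks it down.

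After subtracting each group's mean, which leaves the differences between mice of one group, the nearest gene to Fpr1 was again Fpr2 (r = 0.897), followed by Il1rn, Siglece, Marcks and Samsn1. Fpr2 was nearest to Fpr1, Il1rn, Mmp25, Pilra and Siglece. Ptafr was again nearest to C5ar1 (0.929), then Marcks, Bst1, Pygl and Ccr1. Ltb4r1 was nearest to Agtrap (0.836), Anxa2, Pik3r6, Dock5 and Itgam. On this scale Ptafr ranked 10 by r among the genes most like Fpr1 (0.819) and Ltb4r1 ranked 413 (0.528). By rho, Ptafr (0.856) was closer to Fpr1 than Fpr2 was (0.847), so which receptor is nearest depends on the measure.

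The formyl peptide receptor cluster continues downstream of Fpr2 with Fpr3, whose exons share 48 bases with Fpr2. Fpr3 held 167 counts over 7 of 7 ALY688+LPS libraries and 54 over 4 of 4 LPS libraries, against 0 over 10 ALY688 libraries and 1 over 9 PBS libraries. Its highest level was 3.52 CPM, in an ALY688+LPS mouse, and its mean was 1.52 ± 1.20 CPM in ALY688+LPS mice and 0.688 ± 0.338 CPM in LPS mice (SD). It was too low to be tested in the comparisons of mice with and without LPS. It passed as higher in both when the low-count filter was left out and with DESeq2, and in LPS over PBS without LPS mouse 6. Of the 50-base stretches of Fpr2, 6.33% also occur in Fpr3, so some counts of one may belong to the other. Fpr-rs3, Fpr-rs4, Fpr-rs6 and Fpr-rs7, which are expressed in vomeronasal neurons in mice, had 0 counts in all 30 libraries.

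Genes that supply and remove the ligands differed with LPS in lists of the pathway, which were chosen with earlier results of these data known. Among all genes tested in LPS over PBS, 20.9% were higher and 17.9% lower, and their median log2 difference was -0.04. These are 2578 and 2208 genes, and without TMM scaling 5597 were called higher and 298 lower. Of 8 ligand and peptidase genes of the formyl peptide receptors, 4 were tested in LPS over PBS. Saa3, Camp and Anpep passed the filter on low counts through their level in LPS mice, so no count or median over this list is read. Saa3, an acute phase protein of the serum amyloid A family, had 164 ± 35.5 CPM in LPS mice and 0.261 ± 0.280 in PBS mice (SD), a log2 difference of 9.49 ± 0.41 (SE, adjusted p = 7.3e-10). Anxa1, the anti-inflammatory annexin A1 that binds Fpr2, had 272 ± 123 CPM in LPS mice and 40.0 ± 17.98 in PBS mice, a difference of 2.73 ± 0.35 (edgeR adjusted p = 2.0e-05). Anpep, an aminopeptidase, was higher by 2.82, a call that ended with the globin share as a covariate (1.66). Camp, the cathelicidin whose peptide binds Fpr2 in mice, was higher by 3.93 (edgeR adjusted p = 0.010), but its call was lost without LPS mouse 2, where the difference was 2.17. In ALY688+LPS over ALY688, Saa3 (7.42, and 9.47 without ALY688 mouse 4) and Anxa1 (3.29) were higher, Camp did not pass (1.10, adjusted p = 0.31) and Anpep was too low to be tested.

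For leukotriene B4, 4 of 8 tested genes of synthesis and breakdown were higher and 0 lower in LPS than in PBS, with a median of 0.70. Both values include Ptgr1, which passed the filter on low counts through its level in LPS mice, so they are not read as a result. Alox5, the 5-lipoxygenase, was higher by 1.15 ± 0.31 (log2, SE, edgeR adjusted p = 0.0087), and Lta4h, the hydrolase that forms leukotriene B4, by 1.06 ± 0.17 (adjusted p = 1.7e-04). Ptgr1, which inactivates leukotriene B4, was higher by 2.67 and Cyp4f16 by 1.12. With the globin share as a covariate the calls of Lta4h (0.64), Ptgr1 (2.16) and Cyp4f16 (0.55) ended and 2 genes of the list were higher, and without TMM scaling 7 were. Alox5ap, the activating protein of 5-lipoxygenase, differed by 0.23 (adjusted p = 0.75) in LPS over PBS and by 1.26 in ALY688+LPS over ALY688, where it passed. In that comparison 7 of 8 genes were higher, among them Alox5 by 1.38 and Ptgr1 by 2.20, so this count is not read either. Whether the 2 comparisons differ for Alox5ap falls to the interaction, in which no gene of any list passed.

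For PAF, genes of both synthesis and removal were higher. Lpcat2, which acetylates lyso-PAF to PAF in activated leukocytes, had 80.7 ± 26.9 CPM in LPS mice and 17.3 ± 7.17 in PBS mice (SD), a difference of 2.18 ± 0.29 (log2, SE, edgeR adjusted p = 2.8e-05). Pla2g7, the secreted PAF acetylhydrolase, had 235 ± 57.3 CPM in LPS mice and 39.0 ± 20.3 in PBS mice, a difference of 2.54 ± 0.34 (adjusted p = 2.7e-05). Of the 10 genes of the list, 5 were higher and 3 lower in LPS than in PBS, with a median of 0.28. Of all genes tested there, 20.9% were higher and 17.9% lower. The acyltransferase gene Lpcat4 (0.53) and Pafah1b2 (0.47), a catalytic subunit of an intracellular PAF acetylhydrolase, were higher by small amounts. Pafah1b3 (-1.75), the partner of that subunit, Pafah2 (-1.29) and Lpcat1 (-0.84) were lower. Without TMM scaling Lpcat1 turned positive (0.19) and none of the list was called lower. The calls of Lpcat4 (0.48 to 0.55), Lpcat1 (-0.75 to -0.70) and Pafah1b2 (0.46) ended on leaving out any of 3, 2 and 1 mice: LPS mice 6 and 8 or PBS mouse 7, LPS mice 7 and 8, and LPS mouse 2. That of Pafah2 (-1.34 to -0.97) ended without any of 9 mice, LPS mice 2, 6 and 8 and PBS mice 1, 4, 5, 6, 7 and 9. The count of genes called higher was 3 without LPS mouse 2, 6 or 8, and the count called lower was 1 without LPS mouse 8. With the globin share as a covariate 2 genes were called higher. In ALY688+LPS over ALY688, Lpcat2 (2.55) and Pla2g7 (3.05) were higher, and 5 genes of the list were higher and 2 lower. Of all genes tested there, 26.4% were higher and 26.6% lower. The count called lower did not exceed that share and is not read as a result.

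Related G protein-coupled receptors were counted in lists by ligand. Of 5 tested receptors for complement fragments and chemerin, 4 were higher and 0 lower in LPS than in PBS, with a median of 2.84. C5ar1 had 160 ± 52.3 CPM in LPS mice and 21.7 ± 12.2 in PBS mice (SD), a difference of 2.84 ± 0.35 (log2, SE, edgeR adjusted p = 1.4e-05). C3ar1, for complement C3a, was higher by 2.99, Cmklr1, for chemerin, by 3.19, and Ccrl2, which binds chemerin without signalling, by 2.06. All 5 were higher in ALY688+LPS than in ALY688. Of 15 tested receptors for other lipid mediators, 2 were higher and 4 lower in LPS than in PBS, with a median of -0.15. Of all genes tested in LPS over PBS, 20.9% were higher and 17.9% lower. The count of these receptors called higher did not exceed that share, and neither count is read as a result. Ptger2 (1.15) and Ptger4 (0.75), receptors for prostaglandin E2, were higher. Gpr183, an oxysterol receptor that guides lymphocytes, was lower by 2.81 (2.49 ± 1.10 CPM in LPS mice against 17.05 ± 5.30 in PBS mice, SD, edgeR adjusted p = 4.9e-06). The sums of the B cell and T cell markers, all lower in LPS, ran from 92.7 to 253 CPM and 52.6 to 82.3 CPM in LPS mice, against 563 to 1892 CPM and 129 to 462 CPM in PBS mice. Their part in the level of Gpr183 was not tested. Tbxa2r (-2.09), the thromboxane receptor, Gpr18 (-1.62) and Lpar6 (-1.47), a lysophosphatidic acid receptor, were lower as well. The call of Ptger4 ended without any of 6 mice, LPS mice 2, 6 and 8 and PBS mice 1, 2 and 7, where it was 0.61 to 0.76. The count called higher was then 1, except without LPS mouse 6 or PBS mouse 7. Without TMM scaling 6 of these receptors were called higher and 1 lower, and 4 were called higher without the low-count filter. Of these receptors 3 were higher and 6 lower in ALY688+LPS than in ALY688, with a median of -0.23. Among all genes tested there, 26.4% were higher and 26.6% lower. Cysltr1 and Ptger3, among those called higher, averaged 0.898 and 0.537 CPM in ALY688 mice. Both were too low to be tested in ALY688 over PBS, so the count called higher is not read.

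Downstream of the receptors, 15 of 29 tested genes of Gi signalling were higher and 1 lower in LPS than in PBS. Their median was 0.59, and without TMM scaling 24 were higher and 0 lower. Of all genes tested there with TMM scaling, 20.9% were higher and 17.9% lower, so the count called lower did not exceed that share. Fgr, a Src family kinase of myeloid cells, had 350 ± 83.8 CPM in LPS mice and 64.9 ± 19.1 in PBS mice (SD), a difference of 2.38 ± 0.25 (log2, SE, edgeR adjusted p = 3.5e-06). Pik3r6, a regulatory subunit of phosphoinositide 3-kinase gamma, was higher by 1.77, and Pak1, a kinase activated by Rac, by 1.59. Gnaq, the alpha subunit of Gq, was lower by 1.12, with a call that ended without LPS mouse 2, 6, 7 or 8 or PBS mouse 5 (-1.18 to -1.02) and a sign that turned without TMM scaling (0.21). In ALY688+LPS over ALY688, 22 of 29 were higher and 0 lower, where 26.4% of all genes tested were higher and 26.6% lower. Fgr stood at 2.61, Pik3r6 at 1.89 and Pak1 at 1.62.

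Genes of a desensitisation list, which also holds other G protein regulators such as Gpsm2, were called higher more often than lower. Of 17 tested, 7 were higher and 2 lower in LPS than in PBS, with a median of 0.51, and without TMM scaling 12 were higher. Of all genes tested there, 20.9% were higher and 17.9% lower, so the count called lower did not exceed that share. Rgs3, which speeds GTP hydrolysis by G protein alpha subunits, was higher by 2.02 ± 0.20 (log2, SE, edgeR adjusted p = 1.9e-06), and Grk3, a kinase that phosphorylates activated receptors, by 1.35, a call that ended with the globin share as a covariate (0.42). Rgs1 (1.22) and Gpsm2 (0.96) were higher, but the call of Rgs1 ended without LPS mouse 2 (0.92) and that of Gpsm2 without LPS mouse 2 or 6 (0.81 to 0.87). Rgs10 (-2.21) and Rgs18 (-2.05), regulators abundant in platelets, were lower beside the 5 platelet markers, and the call of Rgs18 ended without LPS mouse 2, 6 or 8 (-2.03 to -1.72). Both turned positive with the globin share as a covariate. The summed level of the platelet markers ran from 1567 to 7403 CPM in LPS mice and from 2030 to 31935 CPM in PBS mice, and its part in these differences was not tested. In ALY688+LPS over ALY688, where 0 of 10 platelet markers passed, Rgs10 (-0.63, edgeR adjusted p = 0.24) and Rgs18 (-0.21, adjusted p = 0.71) did not pass. There Rgs3 was higher by 1.93 and Grk3 by 0.90, and 9 of 17 genes were higher and 1 lower. The shares of all genes tested there were 26.4% higher and 26.6% lower, so the count called lower did not exceed its share. No gene of any of these lists passed in ALY688 over PBS, ALY688+LPS over LPS or the interaction.

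**Figure D5:**
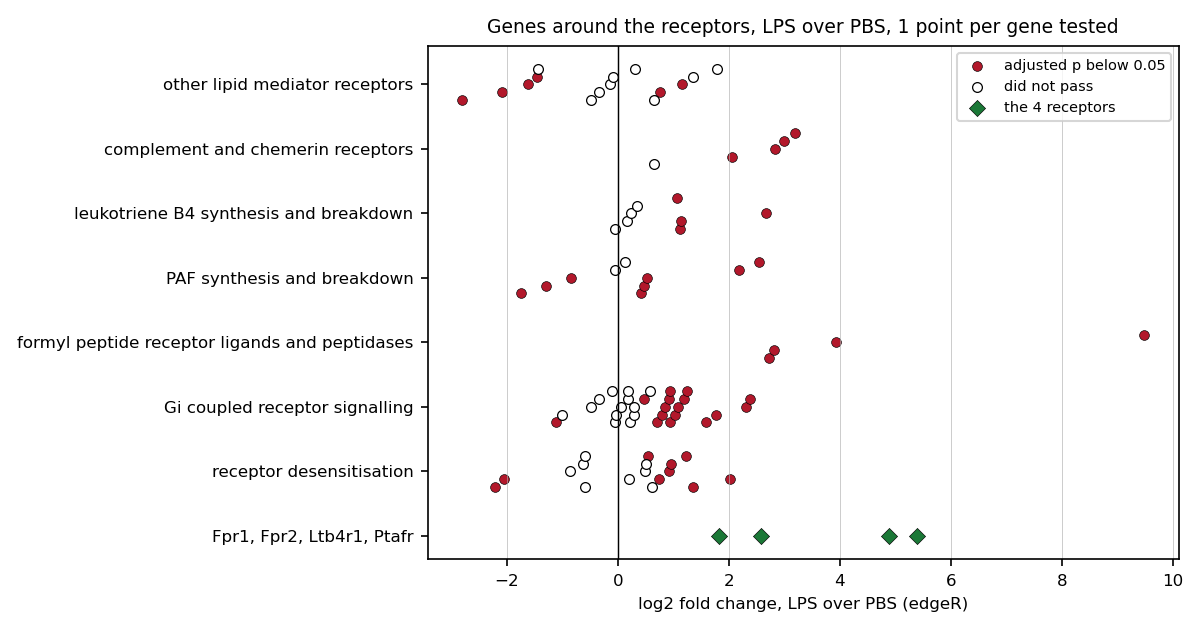
Log2 fold change of LPS over PBS for the tested genes of 7 lists around the receptors and for the 4 receptors, with filled points for adjusted p below 0.05 in edgeR. The complement and chemerin receptors lie to the right, between 0.65 and 3.19, and the receptors for other lipids lie on both sides of 0. Among the ligand and peptidase genes, Saa3, Camp and Anpep passed the low-count filter through their level in LPS mice. The side on which that list lies is therefore not read.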

How the data were processed

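The authors deposited raw read counts, 1 table of whole numbers per mouse. Per the submitters' processing notes, the tools were HISAT2 2.0.5 (alignment) and featureCounts 1.5.0-p3 (counting). Per the labels' protocols, libraries came from poly-T selected RNA with random-hexamer cDNA, and whether they kept strand is left unsaid. The authors' build and annotation, and their handling of shared reads, were not given in the sources used here. Symbols came from GENCODE M21 (GRCm38), which held 54495 of 54532 IDs. Groups follow the treatment label. The 4 labelled mice not analysed here were PBS mouse 10 and LPS mice 3 to 5. Comparisons used TMM scaling, filterByExpr and the two-sided quasi-likelihood F-test of edgeR 4.0.16 in R 4.3.3, fitted on the groups compared (interaction: all groups), with Benjamini-Hochberg adjustment over all genes tested and a threshold of 0.05. Log2 CPM used a prior count of 2. DESeq2 1.42.0, other scalings, filters, covariates and mice left out were alternatives. The scripts were tested on simulated data.

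The receptors, lists and tests were chosen with earlier results of these data known. Named genes were, per pathway list, up to 4 higher and up to 4 lower with the largest log2 fold change in LPS against PBS that passed and averaged at least 1 CPM in a group, up to 3 per marker list, and the 5 most alike per receptor. Alox5ap was named after its values were seen. A result that this rule names in the signalling list is not reported here.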

Additional observations from a re-analysis of the deposited data

How the results depend on the processing

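All 4 receptors stayed called as higher with LPS, in LPS over PBS and in ALY688+LPS over ALY688, under every alternative run. In LPS over PBS their log2 fold changes ran from 5.27 to 6.68 for Fpr1, 4.79 to 6.33 for Fpr2, 2.52 to 3.98 for Ltb4r1 and 1.80 to 2.95 for Ptafr over the alternatives that leave out no single mouse, and from 5.15 to 5.65, 4.61 to 5.15, 2.40 to 2.73 and 1.63 to 2.00 on leaving out each mouse in turn.

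Without scaling beyond the library total, the median of all genes moved to 1.04 in LPS over PBS, 0.50 in ALY688 over PBS, -0.49 in ALY688+LPS over LPS and -0.997 in the interaction. ALY688 over PBS then became 0.43 for Fpr1, 0.073 for Fpr2, 0.31 for Ltb4r1 and 0.33 for Ptafr, each below that median. ALY688+LPS over LPS became -0.29 for Ltb4r1 and -0.16 for Ptafr, and the interaction -0.42 for Fpr1, -0.60 for Ltb4r1 and -0.48 for Ptafr. Genes called in ALY688+LPS over ALY688 numbered 3050 (1846 higher, 1204 lower) against 6503 (3236 higher, 3267 lower) with TMM. In LPS over PBS the split was 5597 higher and 298 lower against 2578 and 2208. Gnaq (0.21) and Lpcat1 (0.19) turned positive there, and the calls of Gpr18 (-0.55), Lpar6 (-0.40), Tbxa2r (-1.07) and Pafah1b3 (-0.66) ended.

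With the globin share as a covariate, Ltb4r1 in ALY688 over PBS was 0.049. In LPS over PBS Pafah2 was then 1.02, Rgs10 0.90, Rgs18 1.20 and Gnaq 0.20, none of them called, and the calls of Gpsm2 (0.99), Rgs1 (1.15), Lpcat4 (0.11), Pafah1b2 (0.34) and Ptger4 (0.095) ended too. In ALY688+LPS over ALY688 Pafah2 was 0.053 and Rgs18 0.12.

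Leaving out each mouse in turn gave 3721 to 4921 genes in LPS over PBS, 6058 to 6962 in ALY688+LPS over ALY688, 0 in ALY688 over PBS and in ALY688+LPS over LPS, and 0 to 1 in the interaction, with 1 gene called without ALY688+LPS mouse 1. Fpr1 in ALY688 over PBS ran from -0.24 to 0.027, positive without PBS mouse 7, and Ltb4r1 in ALY688+LPS over LPS from -0.11 to 0.24. Those near 0 were not called in any fit.

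Mouse numbers recur between groups. Correlations of deviations from group means between same-numbered mice ran from -0.556 to 0.362, and in none of the 4 pairs of groups was a same-numbered mouse the best partner, so the numbers were not taken to pair mice. With the replicate block, 3424 genes passed in LPS over PBS, 4745 in ALY688+LPS over ALY688 and 0 in ALY688 over PBS, ALY688+LPS over LPS and the interaction, and Ltb4r1 in ALY688+LPS over LPS was -0.016. In LPS over PBS 2 genes of the PAF list and 4 of the desensitisation list were then higher, and Ptgr1 (2.21) was not called. In the mice with shared numbers without the pairing, an alternative added after seeing the data, it was -0.054.

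Of 42 list genes named in LPS over PBS, 22 were called under every alternative. The LPS group of 4 mice, and the 6 libraries with under 16000 genes detected, limit the precision of every comparison that uses them.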
